A study of Homo sapiens with 18 samples.

Results

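The protein-coding genes of human chromosome 19 whose symbol begins with ZNF number 249 in GENCODE 44 on GRCh37, out of 20163 protein-coding genes on chromosomes 1 to 22, X and Y. They were taken by symbol and chromosome, a rule that uses no measured value, but it was set with earlier results of these data known. For each gene, the promoter window was the 2001 bp from 1 kb before to 1 kb after its 5′ end, the outermost base that any of its annotated transcripts reaches. DNA came from 3 established human cancer cell lines without treatment, HCT15 from a colorectal tumour and DU145 and PC3 from prostate tumours. Reduced representation bisulfite sequencing (RRBS), which reads methylation base by base in CpG-rich DNA, was done once per line. Each line was also captured with 5 kits that pull down methylated DNA with a methyl-CpG binding domain (MBD-seq), giving 15 libraries. A kit has 1 library in a line, so its replicates are the 3 lines, and the RRBS has none. The library of a line cannot be told apart from the line itself. Each line is 1 culture, and the labels name ATCC as the source of every line while the study's methods name a hospital laboratory for DU145.

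ZNF genes encode proteins whose zinc fingers grip DNA, and many carry a KRAB domain that recruits the corepressor TRIM28 and, through it, enzymes that silence chromatin. On chromosome 19 they lie in long tandem groups that grew by gene duplication, and many of their products bind and silence transposable elements. Promoters with many CpGs are usually free of methylation in normal tissue, and methylation of such a promoter goes along with a silent gene. No expression was measured in this study, so nothing here says whether a gene was silent.

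A promoter counted as measured in a line when at least 5 of its CpGs had at least 10 RRBS reads, and its level is the mean of the methylation percentages of those CpGs. Of the 249 members, HCT15 had 217 measured, DU145 216 and PC3 222. All 3 lines measured 209, and 24 were measured in none. The measured windows had a median of 22, 20 and 24 CpGs in HCT15, DU145 and PC3, and the median over windows of the median reads per CpG was 25, 38 and 34. An SD given after a level is the SD over the CpGs of that promoter and not over replicates. Of the members, 22 had a window that overlapped that of another member, such as ZNF382 and ZNF529 or ZNF345 and ZNF790, and these report largely the same CpGs.

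The sequences of 4 members show the regions that the comparison turned on. ZNF773 and ZNF134 were methylated in HCT15 and not in the other lines, ZNF578 was methylated in all 3 lines, and ZNF599 was high in PC3. Each is the 200 bases before the 5′ end on the strand of the gene, read from GRCh37, with CpGs in capitals. No annotated exon of GENCODE 44 overlaps any of the 4 intervals.
ZNF773, chr19:58011083-58011282, plus strand: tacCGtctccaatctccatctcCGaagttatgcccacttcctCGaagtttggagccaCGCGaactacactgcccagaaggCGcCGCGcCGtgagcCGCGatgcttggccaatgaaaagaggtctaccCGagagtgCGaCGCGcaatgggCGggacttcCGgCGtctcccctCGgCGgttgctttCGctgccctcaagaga
ZNF134, chr19:58125401-58125600, plus strand: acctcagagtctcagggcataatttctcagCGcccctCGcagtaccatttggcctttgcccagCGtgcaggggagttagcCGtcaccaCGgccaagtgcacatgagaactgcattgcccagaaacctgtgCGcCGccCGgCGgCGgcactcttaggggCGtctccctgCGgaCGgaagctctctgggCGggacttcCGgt
ZNF578, chr19:52956606-52956805, plus strand: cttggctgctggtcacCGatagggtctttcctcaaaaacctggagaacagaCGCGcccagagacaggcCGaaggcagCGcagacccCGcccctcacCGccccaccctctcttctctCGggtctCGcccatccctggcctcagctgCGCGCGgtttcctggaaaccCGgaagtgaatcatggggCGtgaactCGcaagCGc
ZNF599, chr19:35264135-35264334, minus strand: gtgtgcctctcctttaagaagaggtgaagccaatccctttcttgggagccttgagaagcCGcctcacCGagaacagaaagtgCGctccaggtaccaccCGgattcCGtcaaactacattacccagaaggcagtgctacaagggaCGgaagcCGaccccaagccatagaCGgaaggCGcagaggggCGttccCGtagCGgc

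Of the 21 CpGs in the ZNF773 interval, 17 had at least 10 reads in every line. Their mean level was 94.96% in HCT15, 6.85% in DU145 and 7.48% in PC3. Of the 16 CpGs before ZNF578, 4 were read, with means of 93.1%, 99.6% and 91.1%. The 8 CpGs read before ZNF599 had means of 7.24%, 12.5% and 60%.

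The low means of the unmethylated intervals came from a few CpGs. In the ZNF773 interval, the 15 CpGs outside the letters CCGG and TCGA ranged from 0 to 5.88% in DU145, while the 2 CpGs inside those letters read 41.2% and 67.6%. The same held over all members. In the 117 windows of DU145 whose other CpGs averaged 10% or less, the CpGs inside CCGG had a mean of 53.6% ± 21.2 (SD over 606 CpGs) and those inside TCGA 58.6% ± 23.1 (SD over 97 CpGs). The CpGs in the other 14 four-letter contexts had a mean of 2.79%. In HCT15 and PC3 the CpGs inside CCGG of such windows had means of 51.5% and 53.2%, against 1.56% and 3.87% for the other contexts. In windows at 80% or more, the CpGs inside CCGG had means of 90.3%, 93.3% and 93.2% in HCT15, DU145 and PC3, close to the 89.3%, 90.2% and 93.4% of the other contexts. The promoters of the other genes of chromosome 19 gave the same values, with 51.8% to 53.0% inside CCGG of unmethylated windows. CCGG, which reads the same on both strands, is present in 98.8% of the members' windows and 93.5% of the windows of all protein-coding genes, and TCGA, which also does, in 77.5% and 83.4%. CCGG and TCGA are the sites of the enzymes MspI and TaqI, and the enzymes used for this RRBS are not given in the sources used here. These CpGs made up 24.8% to 26.4% of the CpGs read in the members' windows. They lift the level of an unmethylated promoter and the cause was not tested, so a level is over all CpGs unless the words "outside the 2 contexts" stand beside it, and most of the named genes that differed between lines are given both ways.

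HCT15 had a high level at more members than the prostate lines. Of the measured members, 98 of 217 (45.2%, Wilson 95% interval 38.7 to 51.8%) had a level of 50% or more in HCT15, against 39 of 216 in DU145 (18.1%, 13.5 to 23.7%) and 37 of 222 in PC3 (16.7%, 12.3 to 22.1%). Over all measured protein-coding promoters, the share at 50% or more was 26.0% in HCT15, 18.1% in DU145 and 16.7% in PC3, so the members' share lay above that of all promoters in HCT15 and next to it in DU145 and PC3. Among the other genes of chromosome 19 the shares were 30.8%, 24.3% and 22.4%, and among the 267 ZNF genes of other chromosomes 18.8%, 10.48% and 10.6%. Intervals cover counting error only, and members with overlapping windows are not independent.

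The median level of the members was 39.8% in HCT15, 22.1% in DU145 and 22.4% in PC3, against 16.8%, 16.9% and 16.1% for all protein-coding promoters. Outside the 2 contexts, the medians were 27.0%, 5.55% and 8.33%, against 2.20%, 2.50% and 2.51%. The levels in HCT15 lay at both ends of the scale. Outside the 2 contexts, 69 of 205 measured members were at 70% or more and 80 were at 10% or less. The share at 10% or less was 39.0% in HCT15, 59.1% in DU145 and 56.6% in PC3, while 64.3%, 67.7% and 68.9% of all protein-coding promoters were this low. Just above the threshold of 50% stood ZNF329 in HCT15 (51.3%), ZNF551 in DU145 (50.4%) and ZNF835 in PC3 (50.4%), and just below it ZNF71 (48.8%), ZNF726 (49.9%) and ZNF551 (48.0%).

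**Figure D1:**
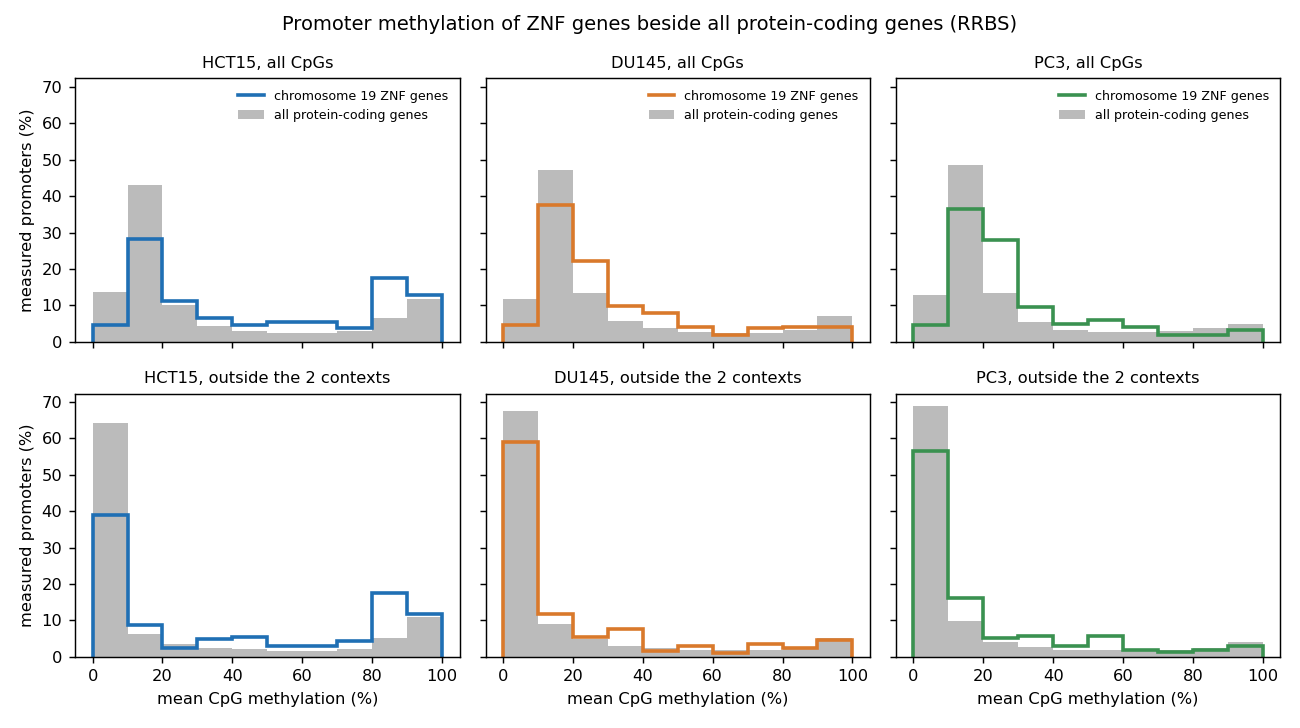
Share of measured promoters (y axis, percent) by mean CpG methylation in steps of 10% (x axis) for the chromosome 19 ZNF genes (coloured outline) and all protein-coding genes (grey bars), in HCT15, DU145 and PC3. The upper row uses all CpGs and the lower row leaves out CpGs in CCGG and TCGA. With all CpGs in HCT15, the step from 80% to 90% holds 17.5% of the ZNF promoters and 6.63% of all promoters, and in the lower row the lowest step holds 39.0% and 64.3%.

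Most members that were high in HCT15 were high in that line alone. Of the 209 members measured in all lines, 59 were at 50% or more in HCT15 only (28.2%), which was the case for 7.84% of all promoters measured in all lines. Outside the 2 contexts it was 48 of 186 (25.8%), against 8.09% of all promoters. The 59 had a median of 85.0% in HCT15 (lowest 51.3%, highest 98.6%), 20.7% in DU145 and 22.8% in PC3. Without the CpGs in the 2 contexts the medians were 85.8%, 6.50% and 8.46%. The members at 50% or more in all 3 lines numbered 23 (11.0%), and the share over all promoters was 11.1%. In DU145 alone 4 members were high (1.91%) and in PC3 alone 4 (1.91%), against 1.29% and 0.97% of all promoters. There were 7 in HCT15 and DU145 (3.35%), 6 in HCT15 and PC3 (2.87%) and 1 in DU145 and PC3 (0.48%). The shares over all promoters were 3.15%, 2.27% and 0.64%. High in no line were 105 members (50.2%), against 72.75% of all promoters.

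Where the annotated gene reaches far upstream of its main transcript, the window lies away from the main promoter. For 45 of the 246 members with a MANE Select or Ensembl canonical transcript, the 5′ end of that transcript is over 1 kb from the end of the gene. ZNF709, whose canonical transcript starts 29038 bp downstream, had 98.1%, 99.1% and 98.2% at the gene's 5′ end in HCT15, DU145 and PC3, and 14.7%, 13.8% and 14.4% at the canonical start. ZNF490, ZNF540, ZNF574 and ZNF444 were likewise at 63.1% or more in every line at the gene's end and at 27.2% or less at the canonical start, whereas ZNF28 was at 55.8% or more at the gene's end and at 44.4% or more at the canonical start. Among such members at 50% or more at the gene's end and measured at both places, the canonical start was also at 50% or more for 8 of 18 in HCT15, 1 of 12 in DU145 and 0 of 10 in PC3. With the window at the canonical start, 59 of 212 members (27.8%) were high in HCT15 only, against 8.04% of all promoters. High in all 3 lines were 16 (7.55%), against 9.74%.

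**Figure D2:**
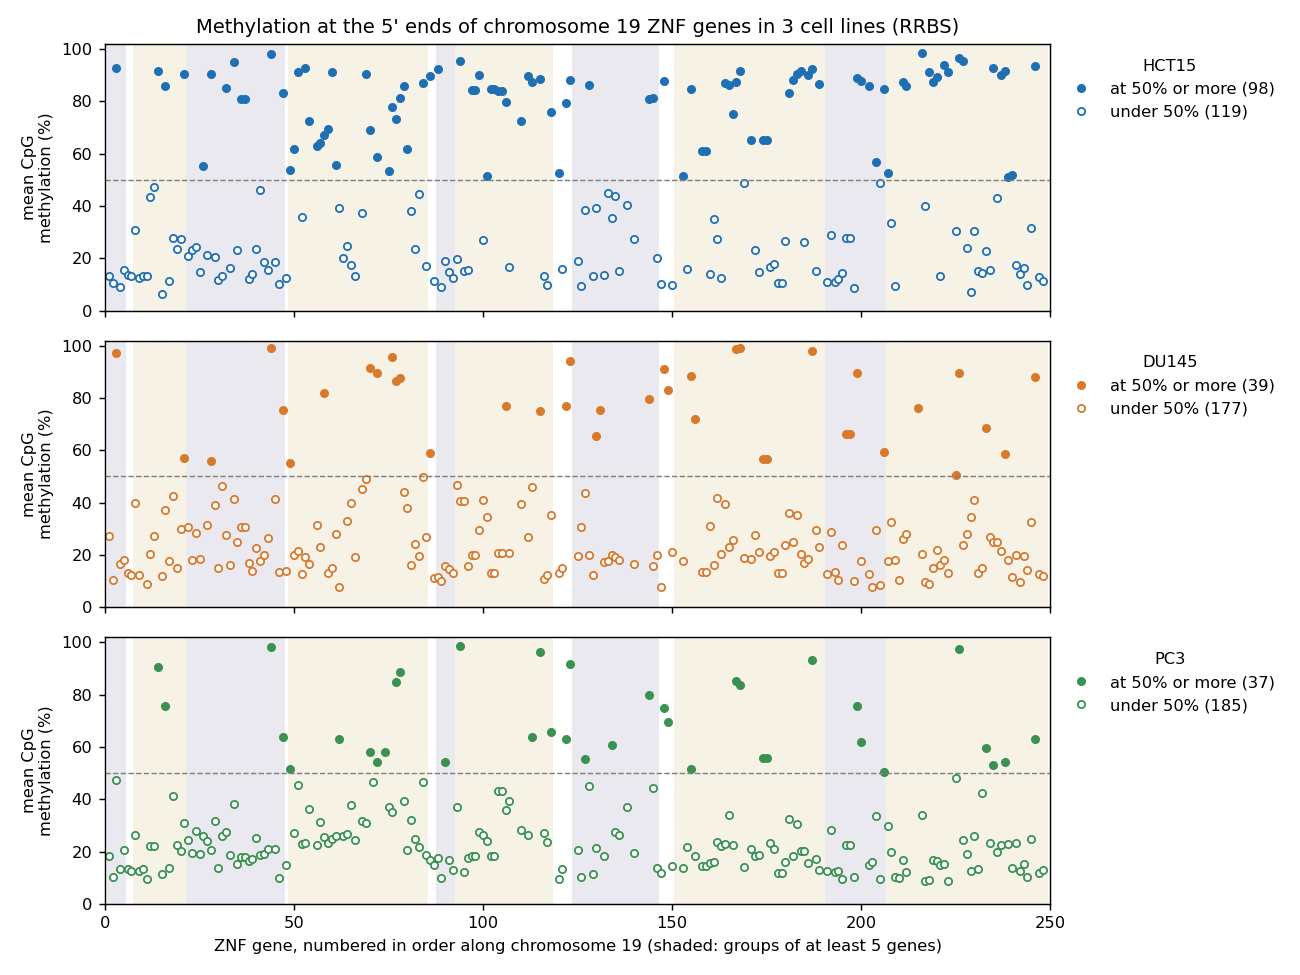
Mean CpG methylation of each measured promoter (y axis, percent) for the 249 ZNF genes numbered in their order along chromosome 19 (x axis), in HCT15, DU145 and PC3 from top to bottom. Filled points are at 50% or more (98, 39 and 37 genes), open points under 50%, the dashed line marks 50%, and the shaded bands are the 10 groups of at least 5 genes whose neighbouring 5′ ends lie at most 500 kb apart. Filled points occur in every band of HCT15 and are sparse in the other lines.

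Of the members, 235 lie in 10 groups of at least 5 genes whose neighbouring 5′ ends are at most 500 kb apart. In HCT15 the share of measured members at 50% or more was highest in the group from ZNF146 to ZNF573 (chr19:36705504-38307940), with 15 of 22, and in the group from ZNF101 to ZNF254 (chr19:19779605-24216207), with 21 of 32. The group from ZNF175 to ZNF331 (chr19:52074536-54022781) had 19 of 34, and the group from ZNF264 to ZNF446 (chr19:57702868-58985384), which holds ZNF773, ZNF134, ZNF671 and ZNF154, had 17 of 37. The groups from ZNF414 to ZNF846 (chr19:8579051-9903856) and from ZNF575 to ZNF180 (chr19:44029649-45004576) had 3 of 14 and 3 of 16. In DU145 the group from ZNF146 to ZNF573 had 2 of 22 and the group from ZNF101 to ZNF254 had 7 of 30, and in PC3 these groups had 4 of 22 and 7 of 34.

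High promoters of HCT15 lay both in runs and next to low ones. Over the 187 pairs of neighbouring measured members that were at most 500 kb apart and did not overlap, 46 pairs had both members at 50% or more, 74 had 1 and 67 had none. The next member was at 50% or more after 55.4% of the 83 high members and after 35.6% of the 104 others. The direction was the same in DU145 (27.6% of 29 and 14.8% of 155) and in PC3 (20% of 30 and 15.5% of 161). Neighbours among other genes were not counted. Among measured members, passing over unmeasured ones such as ZNF729, the longest run of consecutive high members was 9 in HCT15, from ZNF43 to ZNF724. In DU145 it was 5, from ZNF208 to ZNF728, within the same group. Within that group lie ZNF91 and ZNF93, whose products are known to bind the SVA and LINE-1 retrotransposons.

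The lines were compared promoter by promoter over CpGs with at least 10 reads in both libraries of a pair. A promoter was called different when Fisher's exact test on the summed reads gave a Benjamini-Hochberg adjusted p under 0.05 over all protein-coding promoters tested and the mean levels differed by at least 25 percentage points. The test compares 2 libraries and treats reads over neighbouring CpGs as independent, so its p-values are too small and the difference in level carries the call.

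Between HCT15 and DU145, 78 of 206 members were higher in HCT15 and 6 in DU145. Over all 13695 promoters tested, 12.3% were called higher in HCT15 and 1.55% in DU145. The 78 had a median of 84.6% in HCT15 and 20.98% in DU145, with differences from 25.3 to 82.3 points and a largest adjusted p of 1.091e-06 (Fisher's exact test). Outside the 2 contexts 70 of them could be tested, and all 70 were called, with a median difference of 61.0 points against 49.6 for all CpGs.

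Between HCT15 and PC3, 76 of 216 members were higher in HCT15 and 4 in PC3, while 12.5% and 1.61% of all 13118 promoters were called in these directions. The 76 had a median of 85.8% in HCT15 and 23.8% in PC3, and the largest adjusted p was 0.000248 (Fisher's exact test). All 70 that could be tested outside the 2 contexts were called again, on part of the same reads. Among all 200 members tested there, 73 were higher in HCT15 and 6 in PC3, and over all 12308 promoters 1698 and 215. Since the comparisons of HCT15 with DU145 and with PC3 use the same HCT15 library, they are not independent of each other.

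Between the prostate lines, 12 of 209 members were higher in DU145 and 10 in PC3, while the share of all 13028 promoters was 4.40% and 3.25%. Among these members the largest adjusted p was 1.556e-05 (Fisher's exact test). Outside the 2 contexts all of the 20 that could be tested were called, on part of the same reads. Among all 189 members tested there, 14 were higher in DU145 and 15 in PC3, and over all 12178 promoters 615 and 455.

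**Figure D3:**
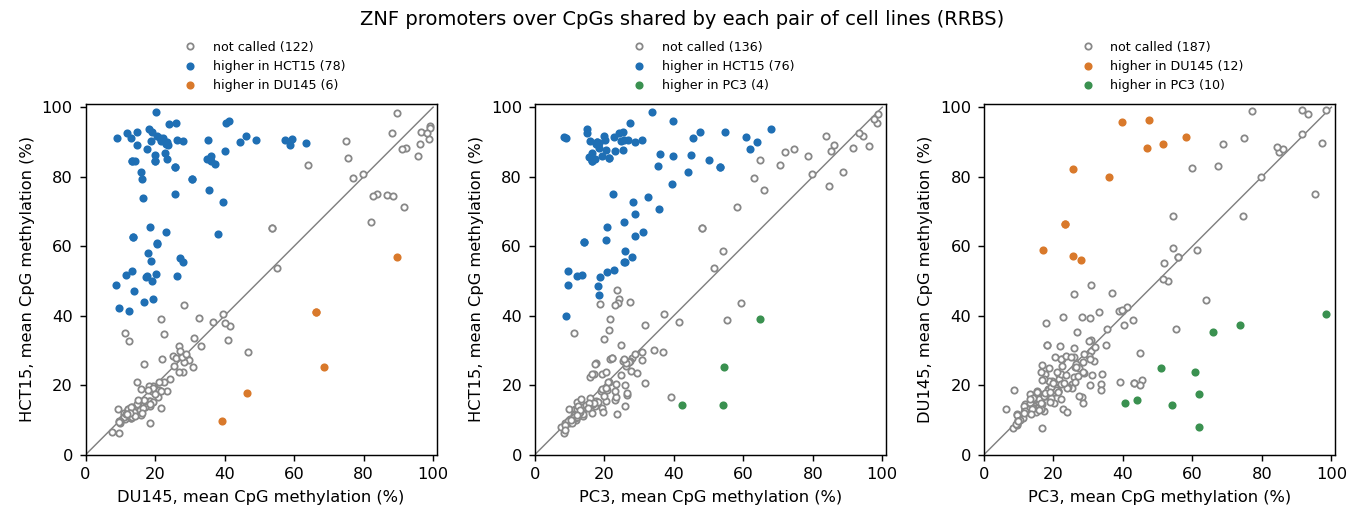
Mean CpG methylation (percent) of each ZNF promoter in 1 cell line against another, over CpGs read in both, for HCT15 against DU145, HCT15 against PC3 and DU145 against PC3. Filled points were called different, in the colour of the higher line, open points were not called, and the line marks equal levels. In the left and middle panels 78 and 76 promoters lie above the line in the colour of HCT15, many of them between 80% and 100%, and in the right panel the called promoters are 12 and 10.

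The 4 largest differences of HCT15 from DU145 were at ZNF773, ZNF302, ZNF772 and ZNF134. ZNF773 was at 91.3% ± 11.6 in HCT15, 9.0% ± 21.3 in DU145 and 9.1% ± 20.7 in PC3 (SD over 51 CpGs in each line). Outside the 2 contexts it was at 90.4%, 0.9% and 1.3%. ZNF302 was at 92.6% ± 10.7 (46 CpGs) in HCT15, 11.6% ± 22.1 (57 CpGs) in DU145 and 17.6% ± 23.9 (53 CpGs) in PC3. ZNF134 was at 91.5%, 13.0% and 8.6%, and ZNF530 at 93.8%, 18.2% and 15.2%, in the same order. ZNF772 was at 98.6% in HCT15, 20.3% in DU145 and 33.8% in PC3 over 6 CpGs. ZNF302 was at 93.2%, 0.61% and 6.74% outside the 2 contexts, ZNF134 at 91.3%, 1.84% and 1.23%, and ZNF530 at 92.8%, 6.70% and 2.51%. At each of these genes HCT15 was high and both prostate lines were low.

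The members higher in DU145 than in HCT15 included ZNF814, at 68.7% in DU145 over 14 CpGs, 59.4% in PC3 and 22.8% in HCT15. ZNF676 was at 89.5% in DU145 and at 58.6% and 54.2% in HCT15 and PC3. ZNF763 was at 46.3% in DU145, 13.1% in HCT15 and 25.9% in PC3, and ZNF69 at 39.2%, 20.6% and 31.6% in this order. Over the 10 CpGs that DU145 and HCT15 share, ZNF69 differed by 29.5 points. With all CpGs of each library in place of shared ones, the difference at ZNF69 was 18.6 points and no longer passed. The levels outside the 2 contexts in DU145, HCT15 and PC3 were 64.6%, 6.37% and 54.7% at ZNF814, and 93.3%, 46.8% and 40.6% at ZNF676. They were 38.5%, 0.60% and 13.1% at ZNF763, and 31.2%, 5.27% and 18.9% at ZNF69. Higher in PC3 than in HCT15 were ZNF599, ZNF814, ZNF587 and ZNF714. ZNF599 was at 54.2% ± 35.7 (28 CpGs) in PC3, 18.98% ± 21.6 (38 CpGs) in HCT15 and 15.9% ± 24.7 (38 CpGs) in DU145. At CpGs with at least 20 reads, its difference between HCT15 and PC3 was 16.8 points over 9 CpGs and that between DU145 and PC3 20.7 points, and neither passed. ZNF714 was at 63.1% in PC3, 39.1% in HCT15 and 7.9% in DU145, and over the 14 shared CpGs its difference from HCT15 was 25.8 points. That call was lost at CpGs with at least 20 reads and with 500 bp windows (21.7 points each), with all CpGs of each library (24 points) and outside the 2 contexts (23.8 points). ZNF587 was at 42.5% in PC3, 14.5% in HCT15 and 15.0% in DU145, and its difference from HCT15 did not pass at CpGs with at least 20 reads (24.9 points). In PC3, HCT15 and DU145, the levels outside the 2 contexts were 49.6%, 12.0% and 7.21% at ZNF599, 59.7%, 36.3% and 0.39% at ZNF714, and 31.7%, 0.41% and 0.62% at ZNF587.

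Between the prostate lines, ZNF626, ZNF99, ZNF556 and ZNF420 had the largest differences toward DU145. ZNF99 was at 95.6% ± 5.0 (17 CpGs) in DU145, 77.8% ± 26.4 (21 CpGs) in HCT15 and 35.2% ± 26.2 (25 CpGs) in PC3. ZNF556 was at 97.2% in DU145, 93.0% in HCT15 and 47.5% in PC3, and ZNF626 at 82.1%, 67.1% and 25.7%. Levels outside the 2 contexts were 95.5%, 75.2% and 23.98% at ZNF99, 95.9%, 94.3% and 36.5% at ZNF556, and 72.8%, 54.2% and 14.5% at ZNF626. Toward PC3, the largest differences were at ZNF565, ZNF714, ZNF582 and ZNF599. ZNF565 was at 98.5% in PC3, 40.5% in DU145 and 95.4% in HCT15 over 10 CpGs, and at 98.1%, 33.8% and 95.1% outside the 2 contexts. Its canonical transcript starts 31592 bp away, where the level was 36.9%, 46.6% and 19.7% in this order.

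The 6 members with the highest mean over the lines, among those at 50% or more in each, were ZNF709, ZNF154, ZNF765, ZNF578, ZNF526 and ZNF534. ZNF154 was at 96.7% ± 10.1 (30 CpGs) in HCT15, 89.7% ± 15.3 (21 CpGs) in DU145 and 97.7% ± 3.2 (30 CpGs) in PC3, and its canonical transcript starts at the gene's 5′ end. ZNF578 was at 91.8%, 99.1% and 83.7%, ZNF534 at 87.5%, 98.8% and 85.3%, and ZNF526 at 88.2%, 94.4% and 91.6%. ZNF765 was at 92.5%, 98.1% and 93.3% at the gene's 5′ end, and at 28.6%, 33.0% and 30.6% at its canonical start 5356 bp away.

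Among 10 members known as genes whose promoters are methylated in tumours, all 8 that were measured in HCT15 were at 84.0% or more there. In DU145 2 of 8 and in PC3 4 of 9 were at 50% or more. The share at 50% or more in HCT15, DU145 and PC3 was 26.0%, 18.1% and 16.7% over all promoters. Over all measured members it was 45.2%, 18.1% and 16.7%. This list was put together from genes methylated in tumours, so it favours high levels. ZNF671, known as a methylation marker of bladder and cervical tumours, was at 95.4% ± 7.2 (36 CpGs) in HCT15, 23.9% ± 30.4 (30 CpGs) in DU145 and 24.3% ± 25.6 (41 CpGs) in PC3. ZNF132, a methylation marker in prostate tumours, was at 93.6%, 88.1% and 62.9% in HCT15, DU145 and PC3. ZNF582, a marker in cervical samples, was at 87.9% ± 14.6, 17.6% ± 27.3 and 62.0% ± 25 (SD over 29 CpGs in each line). ZNF382 was at 84.5%, 19.8% and 18.3%, ZNF667 at 85.7%, 12.8% and 14.7%, and ZNF568 at 84.0%, 20.7% and 43.1%. With the CpGs outside the 2 contexts alone, the levels in HCT15, DU145 and PC3 were 97.2%, 9.47% and 13.3% at ZNF671, 95.8%, 90.5% and 57.4% at ZNF132, and 88.6%, 3.54% and 57.4% at ZNF582. They were 89.7%, 2.23% and 6.75% at ZNF382, 84.0%, 1.88% and 5.10% at ZNF667, and 85.8%, 4.22% and 37.4% at ZNF568. ZNF177 was at 91.6% in HCT15 and 90.5% in PC3 and was not measured in DU145. ZNF471 was at 7.7% in DU145 and 16.1% in PC3 and was not measured in HCT15. ZNF331 was not measured at the gene's 5′ end, and at its canonical start it was at 88.2%, 77.8% and 78.9%.

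Among 7 members with known roles in silencing of transposons or in chromatin and tumour pathways, 6 were at 50% or more in HCT15, 2 in DU145 and 1 in PC3, where the share over all promoters was 26.0%, 18.1% and 16.7%. The counts outside the 2 contexts were 5 of 7 in HCT15, 1 of 6 in DU145 and 0 of 7 in PC3. ZNF93 was at 92.9% ± 6.2 (11 CpGs) in HCT15, 19.1% ± 26.1 (11 CpGs) in DU145 and 23.2% ± 24.9 (12 CpGs) in PC3. ZNF91 was at 38.2% ± 45.0 (16 CpGs), 16.0% ± 27.0 (11 CpGs) and 32.1% ± 39.9 (22 CpGs), which is the lowest level of this list in HCT15. These levels of ZNF91 rest on different CpGs. Over the 11 CpGs shared by HCT15 and DU145 it was at 11.6% and 16.0%. Over the 16 shared by HCT15 and PC3 it was at 38.2% and 41.5%, so HCT15 was not the higher line in either pair. ZNF93 was at 93.2%, 0.61% and 8.47% outside the 2 contexts, and ZNF91 at 27.0%, 0.69% and 20.2%. Over shared CpGs outside the 2 contexts, ZNF91 was at 0.34% in HCT15 and 0.69% in DU145, and at 27.0% in HCT15 and 29.4% in PC3. ZNF85, which lies in the same group of genes, was at 91.3%, 14.9% and 24.7%. ZNF274, which binds the coding ends of other ZNF genes, was at 51.8%, 11.6% and 13.6%, and ZNF304, described as a silencer of tumour suppressor genes in colorectal cells, at 87.6%, 25.9% and 16.6%. ZNF350, a partner of BRCA1, was at 84.7%, 88.5% and 51.4%. ZNF274 was at 45.8% in HCT15 outside the 2 contexts, and so under 50%, and ZNF350 at 39.8% in PC3. On the same CpGs ZNF85 was at 93.0%, 2.86% and 11.0%, and ZNF304 at 87.6%, 13.4% and 7.57%. ZNF420, an inhibitor of p53, was at 79.8%, 76.9% and 35.9%, and at its canonical start 70576 bp away at 14.7%, 18.5% and 16.2%.

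The promoters of most corepressors and enzymes through which KRAB proteins act had low levels in every line. Of 22 such genes, including TRIM28, SETDB1 and the DNA methyltransferases, 18 were measured in HCT15 and 17 in DU145 and in PC3, and 0 were called in any pair by Fisher's exact test and the difference of 25 points (17, 17 and 16 tested). Over all promoters 12.3% and 1.55% were called in the 2 directions between HCT15 and DU145, 12.5% and 1.61% between HCT15 and PC3 and 4.40% and 3.25% between DU145 and PC3. A count of 0 lies below these shares, but the genes are too few to tell it from them. Their median outside the 2 contexts was 2.34%, 1.92% and 2.15%. TRIM28, the corepressor itself, was at 8.24%, 13.6% and 7.80% outside the 2 contexts in HCT15, DU145 and PC3. SETDB1 was well above the median, at 28.5%, 33.2% and 21.4% on such CpGs in the same order. UHRF1, which brings DNMT1 to newly copied DNA, was at 93.0%, 97.8% and 87.0% over all CpGs at the gene's 5′ end. Outside the 2 contexts UHRF1 had a level in PC3 alone, of 87.2%, and its canonical start is not described here. CHD4 was at 41.4% in HCT15 and 52.4% in PC3 over all CpGs. It was not measured in DU145 and had no level outside the 2 contexts.

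Members under 50% were lowest next to the 5′ end. In members under 50%, the 200 bp before the 5′ end had a mean outside the 2 contexts of 3.40% ± 8.67 (SD over 70 promoters) in HCT15, 2.24% ± 4.88 (88 promoters) in DU145 and 5.11% ± 8.57 (108 promoters) in PC3. Between 800 and 1000 bp upstream the means of such members were 73.1% (15 promoters), 69.7% (20 promoters) and 67.7% (24 promoters). Between 800 and 1000 bp downstream they were 19.8% (18 promoters), 51.8% (21 promoters) and 19.1% (27 promoters). The upstream end thus had the higher mean in every line, with the ends closest in DU145. In members at 50% or more in HCT15, the mean was 84.1% ± 15.7 in the 200 bp before the 5′ end (48 promoters), and between 67.6% and 82.1% in every other 200 bp step. In DU145 and PC3 the members at 50% or more were lowest in the 200 bp after the 5′ end, at 57.2% ± 37.2 (14 promoters) and 52.7% ± 35.6 (21 promoters). The bins hold different promoters, since RRBS reads only part of each window, and the members were classed by these same CpGs.

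**Figure D4:**
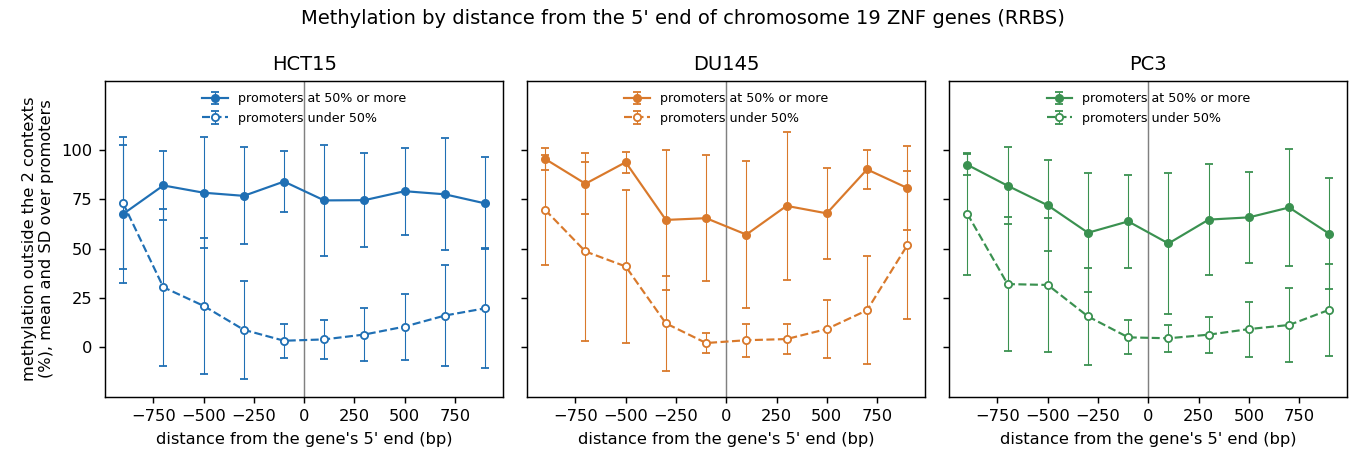
Mean methylation of CpGs outside CCGG and TCGA (y axis, percent) in 200 bp steps of distance from the 5′ end of the gene (x axis, bp, negative is upstream), for promoters at 50% or more (filled) and under 50% (open), in HCT15, DU145 and PC3. Points are means over promoters and bars 1 SD over promoters, which can reach below 0 or above 100%. Open points are at 3.40%, 2.24% and 5.11% in the step before the 5′ end, and those of PC3 are lowest in the step after it, at 4.65%. Filled points of HCT15 stay at 67.6% or more in every step.

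The number of CpGs in a window, counted on GRCh37, had a weak inverse relation to the level. The median window held 79 CpGs, with a median ratio of observed to expected CpGs of 0.585. Across members, Spearman's rho between the number of CpGs and the level was -0.18 in HCT15 (217 members), -0.15 in DU145 (216) and -0.31 in PC3 (222), and -0.12, -0.05 and -0.22 outside the 2 contexts. Windows with 92 to 185 CpGs were at 50% or more for 35 of 82 measured in HCT15, 10 of 83 in DU145 and 9 of 83 in PC3, and windows with 9 to 72 CpGs for 29 of 58, 16 of 56 and 15 of 59. Unmeasured windows held fewer CpGs, with a median of 49.5 in HCT15, 52 in DU145 and 45 in PC3. The members at 50% or more included 8, 1 and 2 of those with the 5′ end of another protein-coding gene on the other strand within 1 kb, of 17 such members measured in each line.

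The upstream intervals of ZNF773, ZNF134 and ZNF599 share the letters CCCAGAA, which occur in the motif bound by ZNF143, and CGGAAG, a form of the motif bound by ETS factors. Counted on both strands in the 200 bases before the 5′ end, CCCAGAA was present for 18.1% of the 249 members and 5.69% of all protein-coding genes, and CGGAAG for 36.5% and 15.7%. Among the ZNF genes of other chromosomes the shares were 8.24% and 25.5%. CCCAGAA was found before 13 of 98 members at 50% or more in HCT15 and before 23 of 119 others, and CGGAAG before 35 and 49. The motifs were chosen after the sequences had been seen, and a match is not a bound site. CGGAAG itself holds a CpG, and the shares were not matched for CpG content. Members that arose by duplication can share upstream sequence, so their matches are not independent.

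The MBD-seq libraries held between 10040 and 7344098 fragments. At promoters of all genes that were at 70% or more in 1 line and at 30% or less in the others, the depth relative to the library's mean was highest at the promoters of the labelled line in 12 of 12 libraries of the 4 kits other than MethylMiner. In the MethylMiner libraries it was so in DU145 alone. The sets held 381 promoters for HCT15, 12 for DU145 and 30 for PC3. The smallest library, with 10040 fragments, was that of MethylMagnet in DU145.

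MBD-seq depth was summed over each measured window and divided by the mean depth of the library over chromosomes 1 to 22. In HCT15, windows at 50% or more had a mean relative depth of 14.6 with MethylMagnet, 12.7 with MethylCollector, 11.3 with MethylCollector Ultra, 5.01 with MethylCap and 1.53 with MethylMiner. Windows at 10% or less outside the 2 contexts had 1.51, 1.30, 1.38, 1.07 and 1.67 in the same order. In PC3 the values were 7.48, 10.4, 8.84, 5.79 and 1.90 for the former and 1.51, 0.953, 1.12, 0.922 and 2.26 for the latter. All kits except MethylMiner were thus deeper over the methylated ZNF windows in these lines. In DU145, MethylCap had 3.23 against 0.621 and MethylMiner 1.83 against 1.76. The other DU145 libraries placed only 3 to 12 fragments in all 216 windows, so their values rest on single fragments.

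**Figure D5:**
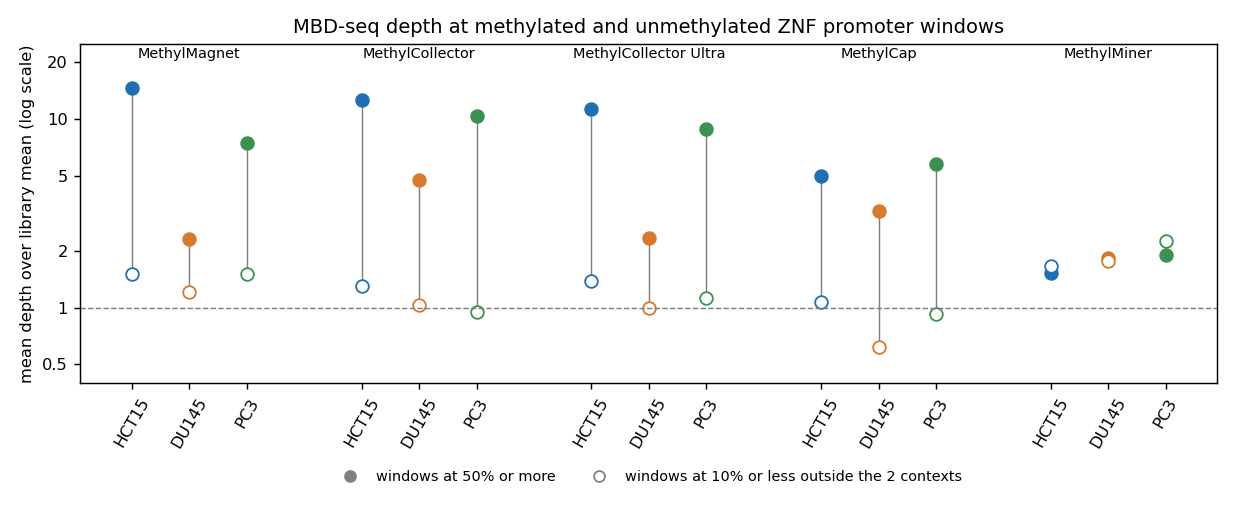
Mean MBD-seq depth over ZNF promoter windows relative to the mean depth of the library over chromosomes 1 to 22 (y axis, log scale) for each of the 15 libraries (x axis, 3 cell lines within each of 5 kits). Filled points are windows at 50% or more by RRBS and open points windows at 10% or less outside CCGG and TCGA, without error bars since each library was made once. Filled points lie above open points for the first 4 kits, and for MethylMiner both lie between 1.53 and 2.26.

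Of a library's depth over the measured ZNF windows, the percentage in windows at 50% or more was lowest with MethylMiner, at a mean of 25.9% ± 15.7 (SD over n = 3 lines). MethylCap had 56.5% ± 17.2 and MethylCollector 62.6% ± 20.2. The means of MethylMagnet and MethylCollector Ultra were 56.1% ± 32.3 and 53.4% ± 30.2. These means and the test below include the DU145 libraries with few fragments, whose shares were 28.1% from 1 of 3 fragments with MethylMagnet, 41.7% from 6 of 12 with MethylCollector and 22.5% from 2 of 10 with MethylCollector Ultra. In HCT15, where such windows were 45.2% of those measured, the shares were 91.5%, 82.1%, 82.9%, 76.0% and 43.8%. In DU145 the shares of MethylCap and MethylMiner were 42.9% and 19.1%, and in PC3 50.8% and 14.7%, where 18.1% and 16.7% of the windows were at 50% or more. Differences between kits made up 29.9% of the summed squares, with p = 0.034 by a two-sided exact permutation of kit names inside each line, where the smallest p is 6.944e-05. Without MethylMiner the share was 2.48% (exact permutation test, p = 0.63). The call was also lost when any 1 of the lines was left out, with exact permutation p-values of 0.075 without HCT15, 0.125 without DU145 and 0.275 without PC3.

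The promoters called different by RRBS were compared with the MBD-seq depth, without a test. Of the members' windows at 10% or less outside the 2 contexts, 79 of 117 in DU145 held no MethylCap fragment. It was 70 of 120 in PC3 and 15 of 80 in HCT15. A count of deeper windows therefore also depends on library depth, and it was not made for members that were not called. At the 78 members higher in HCT15 than in DU145, MethylCap had a mean relative depth of 5.07 in HCT15 (1230 fragments) and 1.34 in DU145 (76 fragments), and was deeper in HCT15 at 75 of them. The DU145 library of MethylCollector Ultra had 4 fragments over these windows, against 460 in HCT15, so its depth was not compared promoter by promoter. MethylMiner had 1.56 in HCT15 and 1.64 in DU145, and was deeper in HCT15 at 42 of 78. At the 76 members higher in HCT15 than in PC3, MethylCap had 5.16 and 1.99 and was deeper in HCT15 at 69, MethylCollector Ultra 11.8 and 2.69 at 70, and MethylMiner 1.54 and 2.23 at 28. At the 6 members higher in DU145 than in HCT15, MethylCap was deeper in DU145 at 3 and in HCT15 at 2, with 5 and 12 fragments. At the 4 members higher in PC3 than in HCT15, it was deeper in PC3 at 4, with 14 and 13 fragments. At the 10 members higher in PC3 than in DU145, MethylCap was deeper in PC3 at 9 (38 and 13 fragments). At the 12 members higher in DU145 than in PC3, it was deeper in DU145 at 5, deeper in PC3 at 5 and at 0 in both at 2, with 23 and 16 fragments.

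Single promoters held few fragments. In the window of ZNF773, MethylCap counted 10 fragments for HCT15 and 0 for both prostate lines. In the window of ZNF302, MethylCap had 17, 0 and 0. In HCT15 and PC3, MethylCollector Ultra had 9 and 0 fragments in each of these windows, from libraries of 652800 and 578738 fragments. In the window of ZNF582, the MethylCap counts of HCT15, DU145 and PC3 were 20, 0 and 6. MethylMiner had 8, 2 and 6 there, and in the window of ZNF773 5, 2 and 2. In the window of ZNF154, MethylCap had 16, 3 and 7 fragments, with relative depths of 4.88, 5.46 and 10.0. A count of 0 in DU145 and PC3 is at the limit of their depth, which was 823586 and 950278 fragments for MethylCap against 3886402 in HCT15.

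MBD-seq also gave values for windows that RRBS did not read. The 32 members unmeasured in HCT15 had a median relative MethylCap depth of 1.56, between the 4.78 of the 98 windows at 50% or more and the 0.659 of the 80 windows at 10% or less outside the 2 contexts, and 2 of them were at or above 4.78. ZNF471 was among these, with 28 MethylCap fragments in HCT15 and a relative depth of 9.38, and 12 fragments with MethylCollector Ultra. In DU145 and PC3 its window had 1 and 5 MethylCap fragments. ZNF331 had 5, 1 and 1 MethylCap fragments at the gene's 5′ end in HCT15, DU145 and PC3. In DU145, 18 of the 33 unmeasured windows held no MethylCap fragment, and 7 were at or above 1.90, the median of windows at 50% or more. In PC3, 15 of 27 held none, and 0 were at or above the 4.83 of such windows. The median of the unmeasured windows was 0 in both lines, as was that of windows at 10% or less outside the 2 contexts. Unmeasured windows hold fewer CpGs than measured ones, and how far this sets their MBD-seq depth was not tested.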

How the data were processed

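The members, the gene lists and the tests were chosen with earlier results of these data known. The RRBS values that the authors deposited are 2 counts for each CpG, its methylated reads and its reads in total, summed over strands, and no CpG has under 6 reads. The MBD-seq values that the authors deposited are coverage, the unscaled depth of fragments without duplicates, from pairs that Bowtie placed uniquely on hg19 with ends at most 400 bp apart. RRBS positions were compared with GRCh37, and 654 to 1932 lines per library on chromosomes 1 to 22, X and Y that did not lie on a CG were dropped.

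CpGs with at least 10 reads were kept, which left 154216 to 166610 per library on chromosome 19. Levels, Fisher's exact tests with Benjamini-Hochberg adjustment over all protein-coding promoters, and kit effects were computed as described above. Named genes are the 4 largest differences in each direction among called members of a pair, the 6 highest means among members at 50% or more in all 3 lines, and the members of the lists. ZNF28, ZNF490, ZNF540, ZNF574 and ZNF444 were named after their values were seen. Other coverages, windows, thresholds, transcript ends and left-out lines were tried. Leaving out the CpGs in CCGG and TCGA, and counting overlapping windows once, were added after seeing the data. The tests were tried on simulated data. Protein features were not used here. Software was Python 3.11.15, scipy 1.17.1, numpy 2.4.6, pysam 0.24.0 and pandas 2.3.3.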

Additional observations from a re-analysis of the deposited data

How the results depend on the processing

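The share of members at 50% or more stayed inside its interval in 20 of 27 recalculations. Counting promoters at 70% or more gave 34.1% in HCT15, 12.0% in DU145 and 6.76% in PC3. Windows of 500 bp either side gave 11.8% in DU145 and 12.0% in PC3, and canonical 5′ ends gave 13.2% and 11.6%. The counts of members that differed between lines stayed within 1.5 times in 43 of 48 recalculations. At a difference of at least 40 points, 1 member was higher in DU145 than in HCT15, 50 were higher in HCT15 than in PC3, 0 were higher in PC3 than in HCT15 and 3 were higher in PC3 than in DU145. At CpGs with at least 20 reads, 7 were higher in DU145 than in PC3. The causes were not tested. Of the recalculated differences of named genes 145 kept their call and 16 lost it, and none turned its direction.

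The difference between kits was called with cell line as the block and was lost in most recalculations, in each case with an exact or resampled permutation p. Without the block on cell line the kits still took 29.9% of the sum of squares, but p was 0.42. Leaving out 1 cell line gave 59.1% without HCT15, 54.1% without DU145 and 18.7% without PC3, and leaving out MethylMiner gave 2.48%. Windows at 70% or more gave 17.8% (exact permutation p = 0.055) and windows classed without CpGs in CCGG and TCGA 25.7% (exact permutation p = 0.067). With windows of 500 bp either side it was 45.9% (exact permutation p = 0.032). With 1 RRBS library per line, no difference between lines has a replicate check, and DU145 libraries with 3 to 12 fragments in the windows limit what the kits can show there.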
